A study of Mus musculus with 15 samples.

Results

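The adventitial fibroblast markers followed through bleomycin injury were 9 genes taken by name: Pi16, Cd34, Dpp4, Ly6a, Scara5, Dpt, Clec3b, Sfrp4 and Gsn. Their rows were found in the count table of 33340 genes by matching Ensembl mouse identifiers to GENCODE M21 symbols, and all 9 were present. Whole lungs of C57BL/6 mice were profiled by RNA-seq. The day 0 group (n = 4) was titled as control and labelled untreated, and the day 7 (n = 4), day 14 (n = 4) and day 21 (n = 3) groups had received 50 μL of bleomycin at 5 U/kg into the trachea under Avertin anaesthesia. Day 0 replicate 4 carried a treatment label naming bleomycin, and its title alone placed it in day 0. The series' design text speaks of 3 replicates at each day, whereas the titles used here give the numbers above. According to the methods, the animals were male and aged 10 to 14 weeks, or 10 to 12 weeks in the bleomycin model. Nothing in the labels ties a library to a named animal, so p-values measure the spread between these libraries, which may be partly technical.

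Adventitial fibroblasts lie in the connective tissue cuffs around the larger vessels and airways of the lung, apart from the alveolar fibroblasts of the gas-exchange septa. They belong to a class of fibroblast found in the connective tissue of many organs that carries Pi16, Dpt, Cd34 and Ly6a, and they are known as a source of matrix proteins and of signals to immune cells near the vessel wall. Several of these markers are shared with other lung cells. CD34 and Ly6a are also made by endothelial cells, Dpp4 and Ly6a by T cells, and gelsolin by many cell types. Whole-lung RNA does not separate these sources, and fewer cells of a type and less RNA per cell cannot be told apart.

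Promoter windows are shown for the marker that rose, Cd34, and for 3 that fell, Gsn, Pi16 and Dpp4, so that the letters before their start sites can be read beside the expression values. The RefSeq promoter table used here (GRCm38.p6) matched 5 of the 9 markers, namely these 4 and Dpt, while Scara5, Clec3b, Ly6a and Sfrp4 are named only. Each window is the 250 bases before a RefSeq start site, 5′ to 3′ on the gene's strand. The windows are chr1:194938571-194938820 (+) for Cd34, chr2:35256109-35256358 (+) for the first of 3 Gsn entries, chr17:29318632-29318881 (+) for Pi16, which falls inside the longer GENCODE gene, and chr2:62412232-62412481 (−) for Dpp4. Capitals mark matches on either strand to the letters of the TATA box, written TATAAA, of the CCAAT box, of the GC box, written GGGCGG, of the AP-1 site, written TGANTCA, or of the TEAD site, written GGAATG.
Cd34: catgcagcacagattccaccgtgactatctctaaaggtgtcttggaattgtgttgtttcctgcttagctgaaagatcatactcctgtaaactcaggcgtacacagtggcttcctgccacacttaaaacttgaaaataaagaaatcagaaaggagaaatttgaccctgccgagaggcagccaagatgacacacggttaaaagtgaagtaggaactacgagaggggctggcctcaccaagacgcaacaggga
Gsn: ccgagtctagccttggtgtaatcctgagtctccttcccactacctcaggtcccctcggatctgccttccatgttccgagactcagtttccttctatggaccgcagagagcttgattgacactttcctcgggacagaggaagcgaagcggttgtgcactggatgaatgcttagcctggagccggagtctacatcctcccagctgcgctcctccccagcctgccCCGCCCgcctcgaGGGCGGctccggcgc
Pi16: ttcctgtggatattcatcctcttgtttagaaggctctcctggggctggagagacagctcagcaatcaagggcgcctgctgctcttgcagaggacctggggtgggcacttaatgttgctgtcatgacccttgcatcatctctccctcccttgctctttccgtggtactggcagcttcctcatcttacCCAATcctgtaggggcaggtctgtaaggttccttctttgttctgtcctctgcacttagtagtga
Dpp4: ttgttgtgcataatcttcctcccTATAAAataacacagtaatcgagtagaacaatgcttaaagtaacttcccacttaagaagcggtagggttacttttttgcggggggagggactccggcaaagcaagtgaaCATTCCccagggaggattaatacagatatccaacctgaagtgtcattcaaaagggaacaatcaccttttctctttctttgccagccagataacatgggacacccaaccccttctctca

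The Cd34 window held none of these letters, nor a CANNTG E-box. The Gsn window held 2 GC boxes, starting 28 and 15 bases before the start site, and the Pi16 window held 1 CCAAT box 64 bases before it. The Dpp4 window held TATAAA 227 bases and the TEAD letters, as CATTCC, 118 bases before the start site. E-box letters, left in lower case, occurred once each in the Gsn window shown and in that of Dpp4, and 6 times in that of Dpt. The Gsn entry at chr2:35266494-35266743 held CCAAT 199, GC box 60 and E-box 216 and 41 bases before its start site. For the entry at chr2:35282130-35282379 these were CCAAT 233, 227 and 140, GC box 12 and E-box 177 and 76 bases. Which Gsn start site these lungs used was not examined. Over 32851 RefSeq promoters of the same length, TATAAA was found in 12.4%, CCAAT in 33.8%, GGGCGG in 32.7%, TGANTCA in 6.75%, CANNTG in 66.2% and GGAATG in 12.6%. A match describes the letters only.

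Levels are given as CPM, counts per 1000000 of the TMM-adjusted library size. Libraries held 15652008 to 18020661 counts. The lung identity of the tissue was plain in the alveolar type 2 marker Sftpc, with a day 0 mean of 19388.5 CPM, and the endothelial marker Pecam1, with 812 CPM. Libraries of a single day differed in 2 respects that the labels do not explain. The share of counts from mitochondrial genes lay between 2.03% and 4.22%, and it was under 2.5% in all 4 day 7 libraries but in only 2 of the 4 at day 0. The summed level of 7 cardiac muscle genes was over 100 CPM in day 0 replicates 3 and 4, day 7 replicate 4 and day 21 replicate 1, at 284, 193, 646 and 758 CPM, and between 18.8 and 57.8 CPM in the other libraries. Where a fit that takes account of either one changed a call of a marker, its value stands beside that result.

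Per kilobase of exon, the day 0 levels of the markers differed widely. Gsn stood at 1312 ± 67.2 CPM per kb (SD, n = 4), followed by Ly6a at 331 ± 36.0, Dpt at 135 ± 20.4 and Clec3b at 92.4 ± 5.19 CPM per kb. Dpp4 (21.8 ± 1.37), Cd34 (15.9 ± 0.811), Pi16 (6.59 ± 0.980), Scara5 (2.16 ± 0.900) and Sfrp4 (0.284 ± 0.0869 CPM per kb) came below. The day 0 ranges of neighbours in this order did not overlap, and the closest pair by ratio was Dpt, whose lowest library was at 109 CPM per kb, and Clec3b, whose highest was at 99.0. After injury the order was no longer the same. Cd34 stood above Dpp4 from day 7, at 22.1 to 29.6 against 11.5 to 17.4 CPM per kb, and the ranges of Gsn (262 to 299 CPM per kb) and Ly6a (261 to 379) overlapped at day 14.

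Against day 0, the markers split into 5 that fell by day 14, 1 that rose and 3 that did not pass the test. A gene was called when its adjusted p was under 0.05 and its fold exceeded 1.5, from a single edgeR fit over the 17457 genes that passed the count filter, which included all 9 markers. At day 7, 1 marker was called higher (Cd34) and 1 lower (Gsn), where 8.78% of all tested genes were called higher, 7.36% lower and 16.1% in either direction. At day 14, 1 was higher (Cd34) and 5 were lower (Gsn, Pi16, Scara5, Dpp4 and Clec3b), against backgrounds of 12% higher, 11.2% lower and 23.1% in either direction. At day 21 the same 6 markers were called in the same directions, against 12.4% higher, 10.1% lower and 22.5% in either direction. The median log2 fold change of the 9 markers was −0.01, −0.81 and −1.29 at days 7, 14 and 21, and that of all tested genes was 0.01, 0.02 and 0.02. All 3 comparisons share the day 0 libraries.

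The overlap of the libraries was also counted. At day 7, every library was above all day 0 libraries for 1 marker (Cd34) and below all of them for 2 (Gsn and Dpp4), where this held for 17.6% and 13.2% of all tested genes. At day 14 the counts were 1 above and 5 below (background 16.8% and 14.4%). At day 21 they were 1 above and 4 below (background 19.4% and 16%), because the highest day 21 library for Scara5 lay within the day 0 range.

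**Figure D1:**
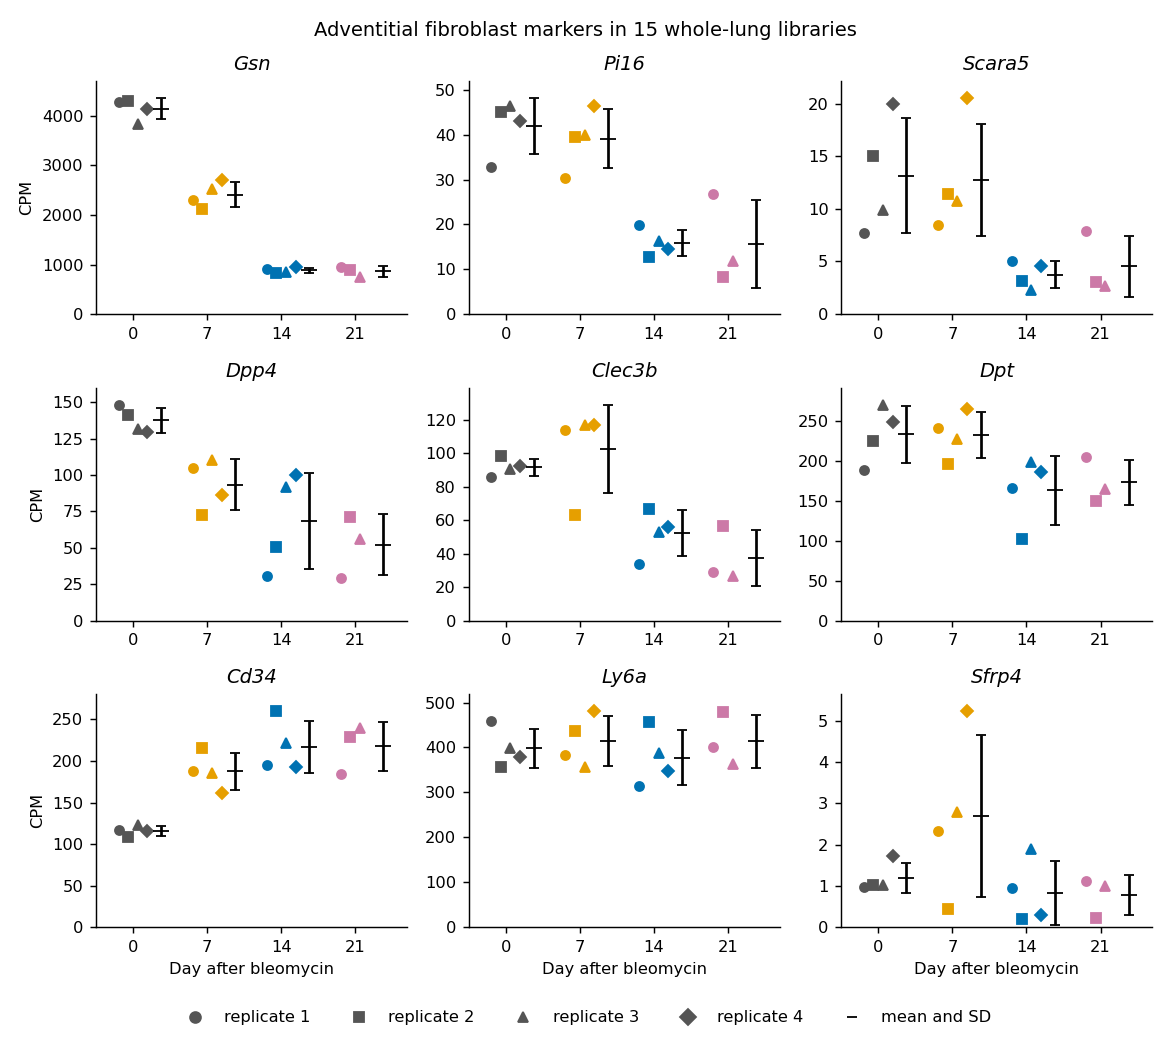
CPM of each marker (vertical axis, from 0) in every library against the day after bleomycin (horizontal axis). Symbols stand for replicate numbers, and the bar beside each day is the mean and SD. Gsn fell from 3843 to 4305 CPM at day 0 to 739 to 955 at day 21, while Cd34 lay above its day 0 range at every later day.

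Among the surface proteins, Pi16 (peptidase inhibitor 16, the gene that gives this fibroblast class its name) is encoded at chr17:29317680-29330593 (+, ENSMUSG00000024011). Its level was 32.8, 45.2, 46.5 and 43.2 CPM in the 4 day 0 libraries and 30.4, 39.6, 40.0 and 46.4 CPM at day 7. It was 19.8, 12.8, 16.2 and 14.6 CPM at day 14 and 26.8, 8.32 and 11.9 CPM at day 21. The day 0 and day 7 ranges overlapped, while every day 14 and day 21 library lay below both. Pi16 did not pass the test at day 7 (log2 fold change −0.10 ± 0.26, SE, adjusted p = 0.811). It was downregulated 2.64-fold at day 14 (log2 −1.40 ± 0.27, adjusted p = 0.00116) and 2.68-fold at day 21 (log2 −1.42 ± 0.30, adjusted p = 0.00238).

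Day 21 replicate 1, the library with 26.8 CPM of Pi16, was also the library with 758 CPM of cardiac muscle genes, and day 7 replicate 4, the highest of day 7 for Pi16, held 646 CPM of them. In a fit restricted to the libraries under 100 CPM of that list (2, 3, 4 and 2 libraries at days 0, 7, 14 and 21, a restriction chosen after the data were seen), the Pi16 log2 fold change was −0.13 at day 7, −1.33 at day 14 (adjusted p = 0.00138) and −1.98 at day 21 (adjusted p = 0.000987). Pi16 was called lower at both later days in this restricted fit too. With day 21 replicate 1 alone left out, the day 21 value was −2.08 ± 0.23 (adjusted p = 4.38e-05).

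Scara5, a class A scavenger receptor that binds ferritin, is encoded at chr14:65666403-65764826 (+, ENSMUSG00000022032). It was a low-level transcript with 40 to 358 counts per library. Its level was 7.70, 14.996, 9.90 and 19.97 CPM at day 0, and 8.44, 11.4, 10.7 and 20.5 CPM at day 7. It was 5.02, 3.13, 2.29 and 4.53 CPM at day 14 and 7.85, 3.02 and 2.71 CPM at day 21. All day 14 libraries lay below the lowest day 0 library, whereas day 21 replicate 1 was just above it. Scara5 did not pass the test at day 7 (log2 −0.05 ± 0.38, adjusted p = 0.943) and was downregulated 3.51-fold at day 14 (log2 −1.81 ± 0.40, adjusted p = 0.00291) and 2.91-fold at day 21 (log2 −1.54 ± 0.44, adjusted p = 0.0148). The day 21 call was lost without day 21 replicate 2 (log2 −1.36, adjusted p = 0.0567) or replicate 3 (log2 −1.32, adjusted p = 0.0621). As for Pi16, the highest libraries of days 7 and 21 were those rich in cardiac genes, and among libraries under 100 CPM of that list the log2 fold change was −1.63 at day 14 and −2.02 at day 21. Without day 21 replicate 1 alone it was −2.23 ± 0.46 at day 21 (adjusted p = 0.00316).

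**Figure D2:**
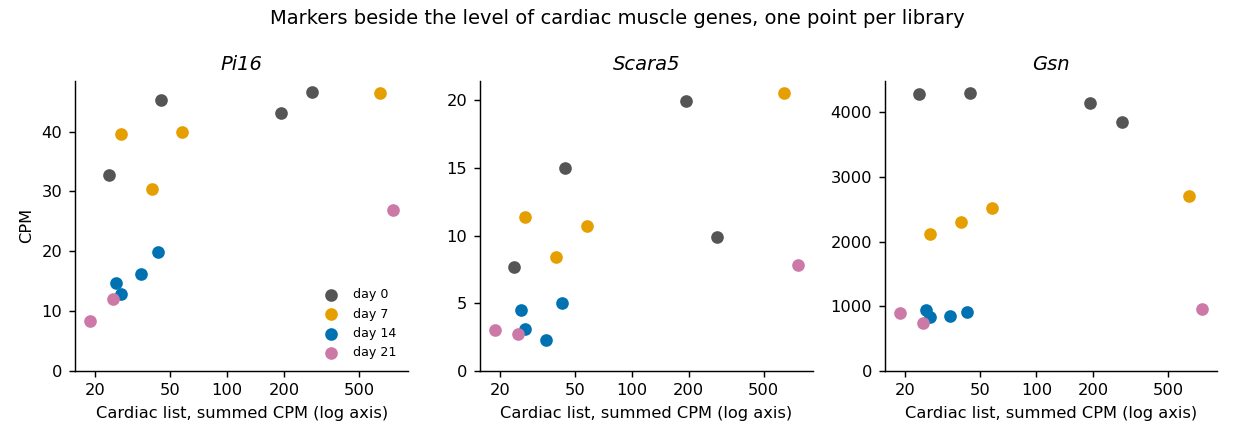
CPM of Pi16, Scara5 and Gsn (vertical axes, from 0) against the summed CPM of 7 cardiac muscle genes (horizontal log axis), 1 point per library, coloured by day. At day 21 the library at 758 CPM of cardiac genes had 26.8 CPM of Pi16 against 8.32 and 11.9 in the other 2. Its Gsn level of 955 CPM was also the highest of that day, against 891 and 739. At day 7 the library at 646 CPM of cardiac genes had the highest Gsn level, 2701 CPM. At day 0 the libraries at 284 and 193 CPM of cardiac genes had the lowest Gsn levels, 3843 and 4141 CPM.

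Dpp4, the serine protease CD26 that trims dipeptides from chemokines and incretins, is encoded at chr2:62330073-62412231 (−, ENSMUSG00000035000). Its level was 148, 141, 131 and 129.8 CPM at day 0 and 105, 72.4, 110.2 and 86.3 CPM at day 7. It was 30.8, 50.6, 91.8 and 100.1 CPM at day 14 and 29.6, 71.1 and 56.1 CPM at day 21. Every library after bleomycin lay below every day 0 library, and the day 14 libraries spread widely, from 30.8 to 100.1 CPM. At day 7 the change missed the threshold in the fit over all days (log2 −0.56 ± 0.31, adjusted p = 0.193). It passed when days 0 and 7 were fitted alone (log2 −0.59, adjusted p = 0.00597) and among libraries of low mitochondrial share (log2 −0.65, adjusted p = 0.0212). With the mitochondrial share as a covariate it did not pass (log2 −0.40 ± 0.37, adjusted p = 0.536). Dpp4 was downregulated 2.01-fold at day 14 (log2 −1.01 ± 0.31, adjusted p = 0.0199) and 2.63-fold at day 21 (log2 −1.40 ± 0.34, adjusted p = 0.00645).

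The Dpp4 calls had limits. The day 14 call was lost without day 14 replicate 2 (log2 −0.91, adjusted p = 0.0591) and among libraries of high mitochondrial share (log2 −0.71, adjusted p = 0.0887), and the day 21 call among libraries under 100 CPM of cardiac genes (log2 −1.22, adjusted p = 0.0762). Dpp4 is also made by T cells, and the summed level of 7 T cell genes was 48.3 to 71.9 CPM at day 0, 34.5 to 84.1 at day 7, 25.1 to 39.6 at day 14 and 16.0 to 45.6 at day 21. Of these 7 genes 3 were called lower at day 14 and 1 at day 21, with Cd3e at 4.84 CPM at day 0 and 2.67 at day 14 (adjusted p = 0.0514) and Cd2 at 21.4 and 8.95 CPM (log2 −1.26, adjusted p = 0.00419). The part of T cells in the Dpp4 fall was not tested.

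Cd34, a sialomucin of endothelial, stem and stromal cells, is encoded at chr1:194938819-194961279 (+, ENSMUSG00000016494) and was the marker that rose. Its level was 117, 108, 123 and 116 CPM at day 0 and 188, 216, 185 and 161 CPM at day 7. It was 195, 259.6, 222 and 192 CPM at day 14 and 184, 229 and 239 CPM at day 21. All 11 libraries after bleomycin lay above all 4 day 0 libraries. Cd34 was upregulated 1.62-fold at day 7 (log2 0.70 ± 0.12, adjusted p = 0.0012), 1.88-fold at day 14 (log2 0.91 ± 0.12, adjusted p = 6.74e-05) and 1.88-fold at day 21 (log2 0.91 ± 0.13, adjusted p = 0.00014). Its log2 fold change lay between 0.62 and 1.03 in every alternative fit.

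Because Cd34 is also made by endothelial cells, the endothelial list was read beside it. Its 9 genes summed to 3587 to 4281 CPM at day 0, 2779 to 3367 at day 7, 2370 to 3616 at day 14 and 3268 to 4149 at day 21, with median log2 fold changes of −0.36, −0.28 and −0.42. At days 7, 14 and 21, 2, 3 and 1 of the 9 were called lower, and Vwf alone was called higher, at day 21 (log2 0.97, adjusted p = 0.00109). Pecam1 went from 812 CPM at day 0 to 637, 537 and 564 CPM at days 7, 14 and 21, a call at day 14 only (log2 −0.60, adjusted p = 0.00458), and the receptor gene Tek was called lower at day 14 as well (390.4 to 211 CPM). The sialomucin relatives of Cd34 gave no call at any day. Podxl was at 485, 533, 504 and 636 CPM over the 4 time points and Podxl2 at 5.27, 4.37, 5.10 and 6.32 CPM.

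Ly6a (Sca-1), a GPI-anchored surface protein induced by interferon, is encoded at chr15:74994877-74998031 (−, ENSMUSG00000075602). Its level was 458, 357, 399 and 379 CPM at day 0 and 383, 437, 356 and 480.2 CPM at day 7. It was 315, 457, 389 and 349 CPM at day 14 and 400.04, 479 and 362 CPM at day 21. The ranges of all 4 time points overlapped, and the log2 fold changes of 0.06, −0.08 and 0.05 (SE 0.14, 0.14 and 0.15) had adjusted p values of 0.804, 0.706 and 0.822. Of 9 interferon-stimulated genes, 3, 1 and 1 were called higher at days 7, 14 and 21, with Isg15 at 10.3 CPM at day 0 and 19.2 at day 14. Among 7 other Ly6 genes, 6 were tested and none was called at days 7 or 14. At day 21 Ly6c1 was called higher (359 to 615 CPM, log2 0.77, adjusted p = 0.014), and Ly6g (log2 −3.42, adjusted p = 0.0379) and Ly6i (log2 −1.40, adjusted p = 0.0458), at 1.56 and 2.01 CPM at day 0, were called lower. Neighbouring Ly6 genes are close copies, and the authors left out reads with several alignments, so their levels are uncertain.

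**Figure D3:**
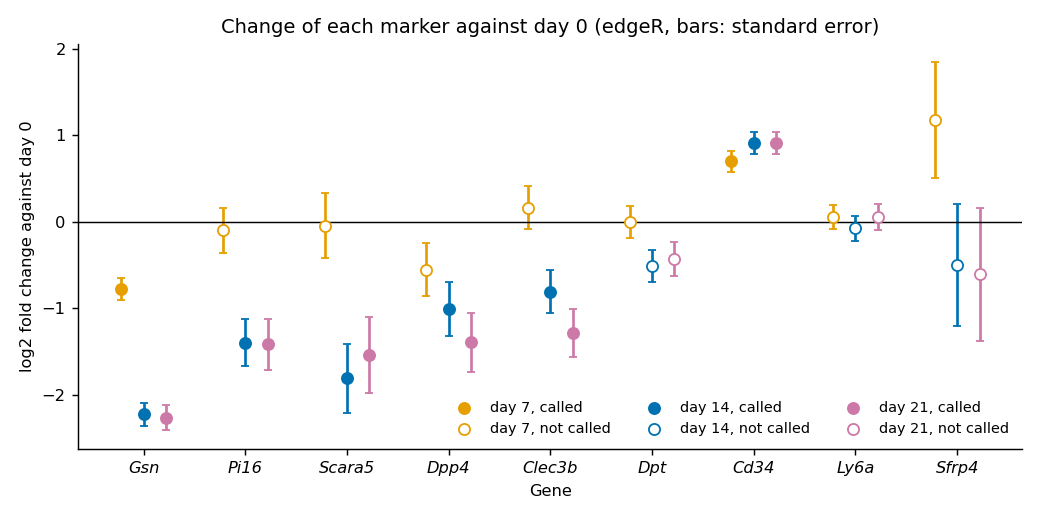
Log2 fold change against day 0 from edgeR (vertical axis) for the 9 markers (horizontal axis), with standard errors, coloured by day. Filled points were called and open points were not. Gsn is the lowest point at each day and Cd34 the only filled point above 0.

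Among the secreted and cytoskeletal products, Gsn showed the largest fall of the 9 markers at every day. Gelsolin severs and caps actin filaments and has a secreted plasma form. The gene lies at chr2:35256380-35307892 (+, ENSMUSG00000026879). Its level was 4279, 4305, 3843 and 4141 CPM at day 0 and 2299.9, 2115, 2524 and 2701 CPM at day 7. It was 911, 826, 853 and 943 CPM at day 14 and 955, 891 and 739 CPM at day 21. The day 0, day 7 and later libraries formed 3 levels without overlap, while day 14 and day 21 overlapped each other. Gsn was downregulated 1.72-fold at day 7 (log2 −0.78 ± 0.13, adjusted p = 0.000685), 4.69-fold at day 14 (log2 −2.23 ± 0.13, adjusted p = 1.36e-07) and 4.81-fold at day 21 (log2 −2.27 ± 0.15, adjusted p = 6.69e-07). In every alternative fit the log2 fold change stayed between −0.93 and −0.72 at day 7, −2.31 and −2.19 at day 14, and −2.43 and −2.21 at day 21.

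No other member of the gelsolin superfamily read here was called lower. Of 6 relatives, Capg, the capping protein of macrophages, was called higher at every day (53.3 CPM at day 0, then 101, 117 and 129 CPM, log2 0.93, 1.14 and 1.28), and the other 5 gave no call. Supervillin (Svil) was at 218, 207, 215 and 231 CPM and Flii at 189, 195, 183 and 185 CPM.

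Clec3b (tetranectin, a plasminogen-binding C-type lectin) is encoded at chr9:123150946-123157432 (+, ENSMUSG00000025784). Its level was 85.8, 98.2, 90.3 and 92.3 CPM at day 0 and 113.7, 63.3, 117 and 117 CPM at day 7. It was 33.6, 66.5, 52.7 and 56.0 CPM at day 14 and 29.3, 56.6 and 26.5 CPM at day 21. At day 7, 3 libraries lay above and 1 below all day 0 libraries, and all libraries of days 14 and 21 lay below day 0. Clec3b did not pass the test at day 7 (log2 0.16 ± 0.25, adjusted p = 0.661). It was downregulated 1.76-fold at day 14 (log2 −0.81 ± 0.25, adjusted p = 0.0201) and 2.45-fold at day 21 (log2 −1.29 ± 0.28, adjusted p = 0.0027). The day 14 call was lost without day 14 replicate 1 (log2 −0.67, adjusted p = 0.0544). Among libraries under 100 CPM of cardiac genes both calls were lost, at log2 −0.85 (adjusted p = 0.0734) and −1.18 (adjusted p = 0.0585).

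Dpt (dermatopontin, a small matrix protein that binds decorin and aids collagen fibril assembly) is encoded at chr1:164796644-164824266 (+, ENSMUSG00000026574). Its level was 188, 225, 270.4 and 249 CPM at day 0 and 241, 196, 227 and 265 CPM at day 7. It was 166, 102, 199 and 186 CPM at day 14 and 205, 150.1 and 165 CPM at day 21. The ranges of days 14 and 21 reached into that of day 0. Dpt was not called at any day. At day 14 its adjusted p was 0.0411 but the 1.43-fold difference was under the fold threshold (log2 −0.51 ± 0.18), and at day 21 the log2 fold change was −0.43 ± 0.20 (adjusted p = 0.116). Without day 0 replicate 1 or day 14 replicate 3 the day 14 difference was called (log2 −0.63, adjusted p = 0.0237, and log2 −0.62, adjusted p = 0.0239). It was smaller without day 14 replicate 2 (log2 −0.37, adjusted p = 0.0833) or day 0 replicate 3 (log2 −0.46, adjusted p = 0.0902). Among libraries under 100 CPM of cardiac genes it was log2 −0.37 (adjusted p = 0.223), and with that list as a covariate −0.38 (adjusted p = 0.0975). The highest Dpt libraries of days 0, 7 and 21 were rich in cardiac genes.

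Sfrp4, a secreted frizzled-related protein that binds Wnt ligands, is encoded at chr13:19623104-19632994 (+, ENSMUSG00000021319) and was near the limit of detection, with 3 to 88 counts per library. Its level was 0.97, 1.03, 1.02 and 1.73 CPM at day 0 and 2.32, 0.45, 2.80 and 5.23 CPM at day 7. It was 0.95, 0.19, 1.89 and 0.30 CPM at day 14 and 1.11, 0.23 and 1.0 CPM at day 21. The day 7 libraries spread from 0.45 to 5.23 CPM and included the highest value of the series. That value was in day 7 replicate 4, a library rich in cardiac genes. Sfrp4 did not pass the test at any day, with log2 fold changes of 1.17 ± 0.67, −0.50 ± 0.70 and −0.61 ± 0.77 (adjusted p = 0.209, 0.617 and 0.59). With 1 library left out the day 14 value ranged from −1.29 ± 0.75 without day 14 replicate 3 (adjusted p = 0.204) to −0.21 ± 0.71 without day 14 replicate 2 (adjusted p = 0.862), and with the cardiac list as a covariate it was −0.083.

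The relatives of Sfrp4 gave calls where Sfrp4 did not, although the difference between them and Sfrp4 was not tested. Sfrp1 was at 24.1 CPM at day 0 and was upregulated to 209, 151 and 240.1 CPM (log2 3.11, 2.65 and 3.32). Frzb, at 0.14 CPM at day 0, was upregulated to 2.31, 3.74 and 8.30 CPM, and Sfrp2 was called at day 21 only (6.11 to 18.3 CPM, log2 1.59, adjusted p = 0.0437). Sfrp5 did not pass the count filter. Of 7 Wnt feedback targets, 1, 2 and 5 were called lower at days 7, 14 and 21 and none higher. Znrf3, a ubiquitin ligase for Wnt receptors, was called lower at all 3 days (25.0 CPM at day 0, then 16.5, 15.1 and 15.6 CPM), and Axin2 at day 21 only (32.35 to 20.6 CPM, log2 −0.65, adjusted p = 0.01).

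Against day 0, no family relative of Dpp4 or Scara5 was called lower. Fap, the protease closest to Dpp4 in sequence and a marker of activated fibroblasts, was called higher at day 14 (1.36 to 3.28 CPM, log2 1.26, adjusted p = 0.0041) and day 21 (3.05 CPM, log2 1.16, adjusted p = 0.0112), and Dpp8 and Dpp9 gave no call against day 0. From day 7 to day 21, 1 of the 3 was called lower, and Dpp9 was the only one with a lower mean (121.8 to 77.0 CPM). Of 4 class A scavenger receptors, 3, 2 and 2 were called higher at days 7, 14 and 21 and none lower. Msr1 was upregulated from 5.49 CPM at day 0 to 37.1, 71.97 and 82.6 CPM, and Colec12 from 151 to 249 CPM at day 7 (log2 0.72, adjusted p = 0.00076).

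To see whether the 9 markers stood for a wider set, 18 further genes of adventitial fibroblasts were read from the same fit. Of these 18, 8 were called higher and 2 lower at day 7, 5 higher and 5 lower at day 14, and 5 higher and 3 lower at day 21, with median log2 fold changes of 0.77, 0.10 and 0.24. The called genes went in both directions. Igfbp6, an IGF-binding protein, was downregulated at all 3 days (362 CPM at day 0, then 153, 86.4 and 71.7 CPM, log2 −1.24, −2.06 and −2.33). Pcolce2, an enhancer of procollagen C-proteinase, was also downregulated at all 3 (306 CPM, then 133, 62.4 and 50.7 CPM, log2 −1.20, −2.29 and −2.59).

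Other genes of the same list were called higher at all 3 days. Fbn1 (fibrillin-1) went from 94.9 CPM at day 0 to 376, 532 and 646 CPM (log2 1.99, 2.49 and 2.77), and Mfap5, a microfibril protein, from 43.6 to 80.9, 96.3 and 97.6 CPM (log2 0.89, 1.14 and 1.16). Cd248 (endosialin) went from 10.5 to 28.2, 31.2 and 45.3 CPM, the chemokine scavenger Ackr3 from 44.7 to 74.4, 112 and 121 CPM, and Anxa3 from 323 to 571, 576 and 566 CPM, each called at all 3 days. Col14a1 (log2 0.80), Smpd3 (log2 1.62) and the eotaxin Ccl11 (log2 1.36) were called higher at day 7 only, and Ccl11 was called lower at day 14 (log2 −1.05). Adh7 (log2 −2.61) and Sema3c (log2 −0.73) were called lower at day 14 only and the alarmin Il33 at day 21 only (129 to 44.4 CPM, log2 −1.54, adjusted p = 0.0324). Serpinf1, Cd55, Efhd1, Creb5 and Entpd2 gave no call at any day.

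**Figure D4:**
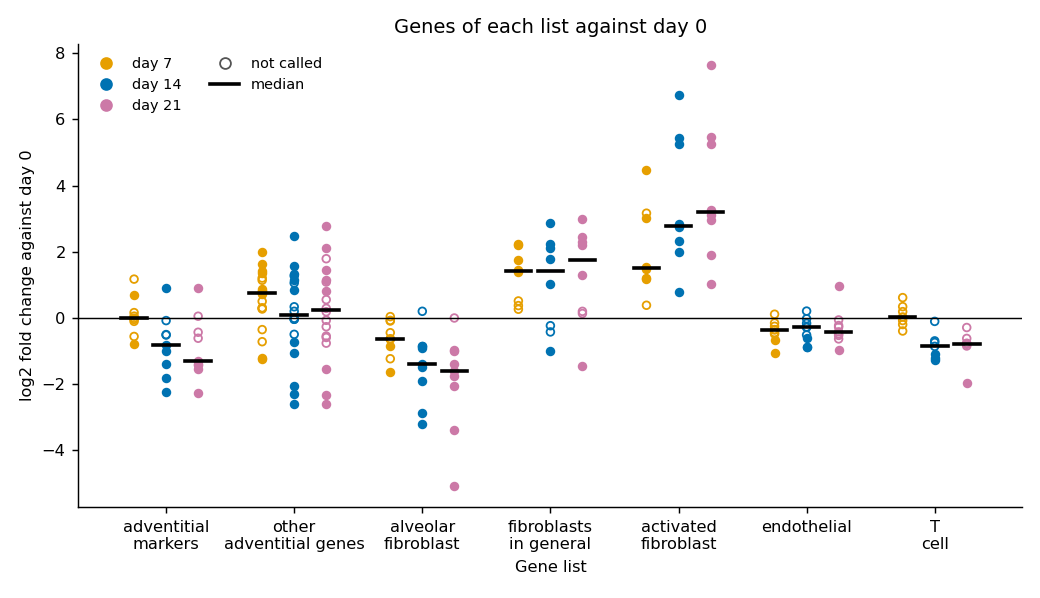
Log2 fold change against day 0 (vertical axis) of every tested gene in 7 lists (horizontal axis), coloured by day. Filled points were called, open points were not, and the black line is the list's median. The markers' median falls from −0.01 to −1.29, the alveolar fibroblast list's from −0.63 to −1.60, and the activated fibroblast list's rises from 1.51 to 3.19.

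Other fibroblast lists give the setting. Of 9 alveolar fibroblast genes, 2, 8 and 8 were called lower at days 7, 14 and 21 and none higher, with median log2 fold changes of −0.63, −1.38 and −1.60. Npnt fell from 789.7 to 439.8 CPM at day 14 and Inmt from 1935 to 212 CPM. Of 8 activated fibroblast genes, 5, 8 and 8 were called higher (medians 1.51, 2.78 and 3.19), and at day 14 Cthrc1 was upregulated from 3.18 to 22.6 CPM and Grem1 from 0.376 to 41.1 CPM. Of 8 genes of fibroblasts in general, 5 were called higher at each day and 1, Fbln1, lower at days 14 and 21 (93.5 to 46.7 CPM at day 14), with Col1a1 rising from a mean of 313 to 2282 CPM at day 14. Day 14 replicate 1 stood apart in these lists. Its general fibroblast genes summed to 14143 CPM against 3888 to 5318 in the other 3 libraries of that day, its activated fibroblast genes to 2731 against 1054 to 1340 CPM, and its alveolar epithelial genes to 7095 against 16145 to 19863 CPM. It was also the lowest day 14 library for Dpp4 and Clec3b and the highest for Pi16 and Scara5. Without it, 4 general fibroblast genes and 7 activated fibroblast genes were called higher at day 14, 8 alveolar fibroblast genes were called lower, and Dpp4 stood at log2 −0.79 (adjusted p = 0.0373). These counts describe each list, and no test compared a list with the markers.

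The later days were also compared with each other. From day 7 to day 14, 4 markers were called lower (Pi16, Scara5, Clec3b and Gsn) and none higher, where 6% of all tested genes were called, 2.77% higher and 3.23% lower. The log2 fold changes were −1.30 for Pi16 (adjusted p = 0.0147), −1.77 for Scara5 (adjusted p = 0.0196), −0.98 for Clec3b (adjusted p = 0.0301) and −1.45 for Gsn (adjusted p = 0.000141). Every day 14 library was below every day 7 library for 3 of them, all but Clec3b, and above for none (background 8.36% and 7.9%). The count dropped to 1, Gsn, when the mitochondrial share entered the fit as a term. The differences were then at least as large and their standard errors wider, at log2 −1.42 ± 0.34 for Pi16 (adjusted p = 0.0605), −1.90 ± 0.50 for Scara5 (adjusted p = 0.081) and −1.23 ± 0.33 for Clec3b (adjusted p = 0.087). The count dropped to 2 without day 14 replicate 2, day 14 replicate 3 or day 7 replicate 4. Scara5 lost its call in each of these fits (adjusted p = 0.0636, 0.0554 and 0.0647), and Pi16 without day 14 replicate 2 (adjusted p = 0.0503). Single libraries also decided the Clec3b call, which was lost without day 14 replicate 1 or 3 or day 7 replicate 1, 3 or 4 (adjusted p = 0.0535 to 0.0814) and among libraries under 100 CPM of cardiac genes (log2 −0.90, adjusted p = 0.0951).

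From day 7 to day 21 the same 4 markers were called lower, against 9.54% of all tested genes called, 5.2% higher and 4.34% lower. The log2 fold changes were −1.32 for Pi16 (adjusted p = 0.0127), −1.50 for Scara5 (adjusted p = 0.0365), −1.45 for Clec3b (adjusted p = 0.00568) and −1.48 for Gsn (adjusted p = 9.62e-05). Libraries of day 21 lay wholly below those of day 7 for 5 markers, the 4 named and Dpp4, and wholly above for none (background 13.4% and 14.6%). The Dpp4 difference did not pass the test (log2 −0.84 ± 0.34, adjusted p = 0.107). Without day 21 replicate 1 the differences were −1.97 for Pi16 (adjusted p = 0.000605) and −2.17 for Scara5 (adjusted p = 0.0153). The Scara5 call was lost without day 21 replicate 2 or 3 or day 7 replicate 3 or 4 (adjusted p = 0.0564 to 0.121). It was also lost with days 7 and 21 fitted alone (log2 −1.50, adjusted p = 0.0526) and with the mitochondrial share as a term (log2 −1.66 ± 0.56, adjusted p = 0.0907). The Clec3b call was lost among libraries under 100 CPM of cardiac genes (log2 −1.23, adjusted p = 0.08). The 2 comparisons share the day 7 libraries.

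Other lists moved over the same intervals. From day 7 to day 14, 5 of the 18 further adventitial genes were called lower and 1 higher (median log2 −0.36). Calls of lower covered 3 of 9 alveolar fibroblast genes (median −0.81), 5 of 5 adipocyte genes and 0 of 7 alveolar epithelial genes (median −0.57). The marker median was −0.98. From day 7 to day 21, 4 of the 18 further adventitial genes were called lower and 1 higher (median −0.22). Of 9 alveolar fibroblast genes 6 were called lower (median −1.13), as were 7 of 7 alveolar epithelial genes (median −1.41) and 3 of 5 adipocyte genes. The marker median was −1.32. The part of these cell types in the fall of the markers was not tested.

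Between day 14 and day 21 no marker was called. The log2 fold changes lay between −0.48 (Clec3b) and 0.27 (Scara5), the lowest adjusted p was 0.584, and 0 of 9 had an unadjusted p under 0.05. edgeR called 0% of all tested genes, in either direction, higher or lower, and DESeq2 likewise called 0 of the 9 markers. No marker separated the libraries of the 2 days (background 3.05% wholly higher and 2.95% wholly lower).

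For each marker, the tested genes whose pattern over the 15 libraries lay nearest were found by the root mean square difference of mean-centred log2 CPM, over 11802 genes with a mean of at least 5 CPM. The nearest to Gsn were Fhdc1 (0.17) and Fam13a (0.18), and to Cd34 Mlkl (0.12) and Iffo2 (0.12). The axonemal dynein heavy chain gene Dnah1 was among the 2 nearest to both Pi16 (0.29, after Pcp4l1 at 0.28) and Scara5 (0.34, after Dnah10 at 0.30). The surfactant gene Sftpb was nearest to Clec3b (0.28, then Hkdc1 at 0.32), and the caveolar coat gene Cavin2 to Dpp4 (0.18, then Pde8b at 0.19). Ly6a had Pdcd2l (0.11) and Hyal2 (0.11), and Dpt had Spag1 (0.19) and Tnk1 (0.20). Sfrp4 had Hspa1b at 0.75 and Srpx at 0.78. A distance depends on the marker's own spread over the libraries. The SD of log2 CPM was 1.16 for Sfrp4 and 1.01 for Gsn, but 0.37 for Dpt and 0.18 for Ly6a. These distances share libraries and depth across genes and are descriptions only.

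Overlapping annotation bears on a few of the values. GENCODE places an antisense gene over each of Pi16, Cd34, Dpp4 and Dpt and a same-strand gene over Gsn. The gene over Pi16 was not among the rows analysed here. The largest mean count of the other 4 was 27.6, for Gm16897 over Cd34, against 1789 or more counts for Cd34 in every library.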

How the data were processed

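RNA-seq of 15 whole-lung libraries was analysed. Per the methods and the submitters' processing notes, the authors trimmed paired reads of 150 bases with TrimGalore 0.6.10, aligned them to GRCm38 with HISAT2 2.1.0, dropped multi-mapped reads, and counted with HTSeq 0.6.0. The authors deposited these counts per Ensembl gene without normalization. The annotation release and strand setting are not given in the sources used here, so reads of overlapping genes cannot be told apart. The authors' own testing used DESeq2 1.40.2.

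The deposited counts were tested with edgeR 4.0.16 in R 4.3.3 (filterByExpr, TMM, glmQLFit, glmQLFTest, day group as the only term, all libraries in 1 fit), with Benjamini-Hochberg adjustment over 17457 genes. Calls required an adjusted p below 0.05 together with a fold above 1.5. CPM used TMM-adjusted library sizes, and log2 CPM for the nearest genes a prior count of 2. Coordinates, exon lengths and symbols came from GENCODE M21 (GRCm38), which matched 33267 of 33340 identifiers. Steps were tested on simulated data.

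The markers and the 21 gene lists were chosen with earlier results of these data known. Genes named were the markers, the 2 nearest genes of each, genes of the further adventitial, Wnt and family lists, any of which could be named and some of which were only counted, and from each other list its first gene and its most changed called genes at day 14. In addition Vwf was named after its values were seen. Lists were described by counts and medians, not tested as sets. Cell type lists covered alveolar, activated and general fibroblasts, smooth muscle, mesothelium, pericytes, endothelium, T cells, alveolar epithelium, macrophages, adipocytes and cardiac muscle, besides interferon-stimulated genes. Alternatives were DESeq2 1.42.0, limma 3.58.1 voom, library totals in place of TMM, RLE factors, an unfiltered table, a filter at 1 CPM on average, the 2 groups alone, a replicate block, each library left out, no fold threshold, glmTreat, the mitochondrial share as a covariate, and libraries under 2.5% or over 3.5% of it. The cardiac list level, as a covariate and as a limit of 100 CPM, was added after the data were seen. No pair of libraries of the same day was a duplicate by a chi-square test of their counts, and pairs across days were not examined.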

Additional observations from a re-analysis of the deposited data

Results flagged for a closer look

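Clec3b at day 7 had 1 library apart from the rest, replicate 2 at 63.3 CPM against 113.7 to 117 CPM in the other 3. Sfrp4 at day 0 had replicate 4 at 1.73 CPM against 0.97 to 1.03 CPM in the other 3, on 31 counts against 15 to 17. These were 2 of 27 marker and day groups examined for a library far from the others, and chance gives about 1 in 20. Day 0 replicate 4 is the library whose treatment label goes against its title.

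The effect of bleomycin differed between days for 4 markers, as a direct test of the later days in the edgeR fit. At day 14 against day 7 the log2 difference was −1.30 for Pi16, −1.77 for Scara5, −0.98 for Clec3b and −1.45 for Gsn. At day 21 against day 7 it was −1.32 for Pi16, −1.50 for Scara5, −1.45 for Clec3b and −1.48 for Gsn. In all these cases except Clec3b at day 14, every library of the later day lay below every day 7 library.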

How the results depend on the processing

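Over the marker by alternative results, 674 of 740 kept their direction and side of the threshold, 39 kept their direction but lost the call, 5 gained one and 22 reversed. The calls of Pi16, Gsn and Cd34 at days 14 and 21 against day 0 held in every alternative. With glmTreat, which tests against the fold threshold itself, 0 markers were called at day 7, 4 at day 14 and 5 at day 21 against day 0, and 1 at day 14 and 1 at day 21 against day 7. Shares over all tested genes are given for the main test only, so these glmTreat counts have no background to be read against. When the mitochondrial share was added as a term, 1 was called at day 14 against day 7, although the differences were at least as large for Pi16 (−1.42), Scara5 (−1.90) and Clec3b (−1.23) and their standard errors were wider. Leaving out 1 library each gave 2 to 4 calls for day 14 against day 7. The cause of the other losses was not tested. Day 0 libraries of low and high mitochondrial share number 2 each and no day 21 fit within a set was run, for lack of libraries. Sfrp4 rested on 3 to 88 counts and its day 7 libraries spread from 0.45 to 5.23 CPM.

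Reversals concerned log2 fold changes against day 0 that were near 0 and not called. Dpt at day 7 was 0.15 within libraries of low mitochondrial share, 0.00092 with limma voom, 0.16 with the mitochondrial covariate, and, in the forms added after the data were seen, 0.011 with the cardiac covariate and 0.059 under 100 CPM of cardiac genes, and −0.12 to 0.068 with 1 library left out. Scara5 at day 7 was 0.15 within the low set, 0.092 with the mitochondrial covariate and −0.37 to 0.21 with 1 library left out. Pi16 at day 7 was 0.0082 with the mitochondrial covariate. Ly6a was 0.023 at day 14 within the high set, −0.095 at day 7 under 100 CPM of cardiac genes, −0.023 to 0.12 at day 7 and −0.10 to 0.10 at day 21 with 1 library left out.

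The replicate numbers were not treated as pairs. Deviations of same-numbered libraries correlated at −0.24 to 0.40 (median 0.04, 21 pairs). Those of differently numbered libraries correlated at −0.33 to 0.26 (median −0.03, 63 pairs). These values cannot show whether libraries of the same number share an origin. With the replicate block the calls numbered 2, 6 and 6 at days 7, 14 and 21 against day 0, 4 and 4 for days 14 and 21 against day 7, and 0 for day 21 against day 14, and the block changed no count of calls.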

Other observations

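Lists of cells outside the adventitia changed over the same days. The 7 alveolar epithelial genes summed to 24201 to 33993 CPM at day 0 and 4412 to 9288 CPM at day 21, and 0, 3 and 5 of them were called lower at days 7, 14 and 21, or 1 at day 14 without day 14 replicate 1. Sftpc went from 19388.5 to a mean of 9780.0 CPM at day 14, where replicate 1 held 7095 CPM of the list against 16145 to 19863 CPM in the other 3, and the phosphate transporter Slc34a2 from 2666 to 1239 CPM. Of 7 macrophage genes 2, 5 and 3 were called higher, with Adgre1 at 29.9 CPM at day 0 and 76.7 at day 14, and Marco at means of 25.0 and 135.5 CPM. Marco was above all day 0 libraries in 3 of 4 at day 14, and the 4 scavenger receptor genes that include it summed highest in replicate 2 of that day, at 673 CPM, while the rest lay between 233 and 394 CPM.

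Lists of contractile and lining cells were read in the same way. Of 7 smooth muscle genes 1, 2 and 3 were called higher at days 7, 14 and 21, among them Acta2 at day 14 (109 to 396 CPM). Of 6 mesothelial genes Msln was the only call, higher at day 14 (90.3 to 439 CPM) and at day 21. Of 5 pericyte genes 1, 1 and 2 were called higher and 1 lower at each day, with Cspg4 higher (16.0 to 37.4 CPM) and Cox4i2 lower (29.4 to 18.4 CPM) at day 14.

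The 5 adipocyte genes summed to 19.8 to 68.7 CPM at day 0, 9.43 to 137 at day 7, 1.30 to 3.51 at day 14 and 0.741 to 3.03 at day 21. The 137 CPM was in day 7 replicate 4, which was rich in cardiac genes, and the rest of that day held 9.43 to 29.0 CPM. Of the 5 genes 1, 5 and 4 were called lower at days 7, 14 and 21, with Adipoq at 1.24 CPM at day 0 and 0.0286 at day 14, and Cfd at 17.1 and 0.179 CPM. The ranges of the summed adipocyte genes at days 14 and 21 lay below those of days 0 and 7, as did those of Pi16. The part of adipose tissue in the Pi16 values was not tested. Of the 7 cardiac genes 6 were tested, and 1, Myh6, was called lower at day 14 and none at the other days.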
